A study of Mus musculus with 41 samples.

Results

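The nuclear-encoded subunits of respiratory complex I were followed in the liver, subcutaneous adipose tissue (SAT) and brain of mouse pups whose dams had received metformin or vehicle during gestation. The members were the probes of the Illumina Mouse WG-6 v2 array whose annotated gene symbol is Ndufa, Ndufb, Ndufc, Ndufs or Ndufv followed by a number, which leaves out the assembly factors named Ndufaf and the acyl carrier protein Ndufab1. The rule used names alone and no measured value. It found 51 of the 45281 probes and 35 of the 19057 annotated gene symbols, 34 subunit genes and the pseudogene Ndufs5-ps. A single probe represented 21 of the genes, 13 genes had several, and *Ndufs4* had 4.

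All pups were of the C57/BL6NHsd strain, with no engineered allele, and were 4 days old. In the arrays that the labels number Study II the dams ate a high fat diet (HFD) before and during gestation, and 6 control and 6 metformin exposed males gave a liver and 6 control and 5 metformin exposed males gave SAT. In those numbered Study I the dams ate the regular diet (RD), and 3 control and 3 metformin exposed pups of each sex gave a liver, with the whole brain of the 3 and 3 males. Metformin was given to the dam by mouth, so no pup was dosed itself. The animal codes of the HFD controls begin with 1R or 1T and those of the metformin exposed HFD pups with 10K or 3R. Those of the RD controls end in B or C and those of the metformin exposed RD pups in E or F. No code held both treatments, and the labels do not say what these codes stand for. Pups that share a code may not be independent, in either study.

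Complex I is the entry point of electrons from NADH into the mitochondrial respiratory chain, and it couples their transfer to ubiquinone to the pumping of protons across the inner membrane. It is built from core subunits, which hold the cofactors or form the proton channels, and from accessory subunits, which surround and stabilise the core in a matrix arm and a membrane arm. Some core subunits are encoded by mitochondrial DNA and the rest, like all accessory subunits, by nuclear genes. Complex I is inhibited by metformin in isolated mitochondria and in cells, and hepatic and brown adipose mitochondria depend on it for NADH oxidation.

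By their roles, 5 of the tested probes belonged to core subunits (*Ndufs3*, *Ndufs7*, *Ndufs8*, *Ndufv1* and *Ndufv2*), 16 to accessory subunits of the matrix arm and up to 26 to those of the membrane arm. *Ndufa4*, which matches by name but is now counted with complex IV, and Ndufs5-ps were given none of these roles. Both stayed in all counts, medians and array means over the member probes, and *Ndufa4* also in the counts by gene. Of the 51 probes, 42 were detected (detection p under 0.05) on each of the 41 arrays. The single probe of *Ndufs1*, the largest core subunit, and 1 probe of *Ndufb2* (ILMN_1243847) were in no group detected on every array and were not tested. *Ndufs5*, *Ndufb1* and *Ndufa4l2* were matched to no probe and were not analysed here.

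Promoters are printed for the genes that the results below turn on, *Ndufs6* and *Ndufs4*, which had the probes called lower in the HFD liver, and *Ndufb2* and *Ndufb4*, which had some of the largest differences in SAT. Each run is the 250 bases before the RefSeq start of the gene on GRCm38.p6, 5′ to 3′ on the strand of the gene, and capitals mark matches to the motifs searched.
Ndufs6 (chr13:73328483-73328732, minus strand): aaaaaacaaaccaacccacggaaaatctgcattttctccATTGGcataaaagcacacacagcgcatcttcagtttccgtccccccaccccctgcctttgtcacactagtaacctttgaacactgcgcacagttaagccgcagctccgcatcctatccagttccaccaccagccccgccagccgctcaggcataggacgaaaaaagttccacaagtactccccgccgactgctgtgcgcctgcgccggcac
Ndufs4 (chr13:114388095-114388344, minus strand): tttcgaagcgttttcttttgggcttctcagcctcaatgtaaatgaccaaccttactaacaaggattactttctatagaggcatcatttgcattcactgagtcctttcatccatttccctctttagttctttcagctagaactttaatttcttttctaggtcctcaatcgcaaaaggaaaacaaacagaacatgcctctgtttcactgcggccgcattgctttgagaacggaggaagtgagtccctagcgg
Ndufb2 (chr6:39592315-39592564, plus strand): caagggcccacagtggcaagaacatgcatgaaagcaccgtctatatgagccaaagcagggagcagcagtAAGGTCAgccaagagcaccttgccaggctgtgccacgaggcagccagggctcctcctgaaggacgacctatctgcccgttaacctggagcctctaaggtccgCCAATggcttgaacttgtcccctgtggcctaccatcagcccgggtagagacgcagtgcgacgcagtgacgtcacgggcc
Ndufb4 (chr16:37654369-37654618, minus strand): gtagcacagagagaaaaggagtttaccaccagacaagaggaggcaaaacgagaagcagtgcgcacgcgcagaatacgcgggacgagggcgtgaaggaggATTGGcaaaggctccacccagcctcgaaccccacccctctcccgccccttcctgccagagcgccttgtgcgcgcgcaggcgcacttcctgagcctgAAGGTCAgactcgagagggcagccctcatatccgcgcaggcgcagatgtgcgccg
The letters searched on both strands were CGCATGCG for NRF1, CCGGAAG for ETS factors, AAGGTCA for the estrogen-related receptors (ERR) and CCAAT for its box. These factors are known regulators of nuclear genes for respiratory chain proteins. Promoters of 31 member genes were matched. The NRF1 letters stood in 1.55% of all 32851 RefSeq promoters and in 2 member genes, *Ndufa8* and *Ndufa11*. The ETS letters stood in 6.91% of all promoters and in 3 member genes, *Ndufb6*, *Ndufb7* and *Ndufs3*. The ERR letters stood in 4.08% of all promoters and in *Ndufb2* and *Ndufb4* of the members, 181 to 175 and 55 to 49 bases before the start. The CCAAT letters stood in 33.8% of all promoters and in 10 member genes, *Ndufs6* among them. The printed stretch of *Ndufs4* held none of these letters.

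The share of probes detected per array ranged from 29.9% to 46.1%. The lowest shares in SAT belonged to the control samples 1R-4 (29.9%) and 1T-1 (31.5%), against 40.6% or more on every other SAT array. Tissue labels were checked with marker lists. Of 7 liver markers, 6 were detected on every liver. Of 6 brain markers with a probe, 5 were detected on every brain, and all 6 adipocyte markers were detected on every SAT array. Markers were also detected outside their tissue. Of the liver markers, 4 were detected on every control SAT array, 3 on every metformin SAT array and 2 on every brain. Their highest group means in SAT were 9.43 in controls and 9.86 with metformin. Of the brain markers, 4 were detected on every RD male liver. The part of these signals in the complex I values was not tested. Of 9 skeletal muscle markers with a probe, 5 were detected on every control SAT array and 9 on every metformin SAT array. No 2 arrays held identical values. In whole tissue, fewer cells of a type and less RNA per cell cannot be told apart.

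Metformin in the liver of HFD offspring. Complex I transcripts were lower in metformin exposed livers: 41 of the 49 tested probes had a negative log2 difference, with a median of -0.20, against a median of -0.01 and 51.6% negative over all 17547 tested probes. After adjustment over all probes with limma, 2 member probes passed the threshold of 0.05, both lower, in *Ndufs6* and *Ndufs4*, and 0 passed as higher, while 0.826% of all probes passed in either direction and 0.541% as lower. At an unadjusted p under 0.05, 20 member probes were lower and 0 higher, against 9.85% lower and 8.12% higher of all probes. By gene, with the brightest probe of each, 29 of 33 were lower and the median was again -0.20. The p-values measure the spread among these pups, and pups that share a code may not be independent.

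*Ndufs6* encodes a zinc-binding accessory subunit of the matrix arm that is needed for late steps of assembly. Its probe ILMN_1233115 had log2 intensities of 8.44 at the lowest, 8.65 at the median and 8.89 at the highest in the 6 control livers. In the 6 metformin livers the lowest was 8.0, the median 8.11 and the highest 8.31. Every metformin liver lay below every control liver. The means were 8.65 ± 0.171 (SD, n = 6) and 8.14 ± 0.13 (SD, n = 6), a fall of 1.42-fold with a log2 difference of -0.51 (SE 0.0938, limma adjusted p = 0.0112). The other probe of the gene, ILMN_2842572, had a log2 difference of -0.01 (limma adjusted p = 0.975), with 12.81 to 13.17 in controls and 12.90 to 13.08 in metformin livers. The probes of *Ndufs6* thus disagreed by 0.50, and the fall was seen on 1 of them.

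*Ndufs4* encodes an accessory subunit of the matrix arm near the site of NADH oxidation, and its loss causes a Leigh-like encephalopathy in mice. Its brightest probe, ILMN_1234521, had log2 intensities of 10.89, 11.14 and 11.37 (lowest, median, highest) in control livers and of 10.48, 10.59 and 10.88 in metformin livers. The groups did not overlap, although the highest metformin liver and the lowest control liver were 10.88 and 10.89. The means were 11.12 ± 0.171 (SD, n = 6) and 10.61 ± 0.147 (SD, n = 6), a fall of 1.42-fold with a log2 difference of -0.50 (SE 0.106, limma adjusted p = 0.0289). The other *Ndufs4* probes had log2 differences of -0.33 (ILMN_2900025, limma adjusted p = 0.0603), -0.26 (ILMN_2640944, adjusted p = 0.167) and 0.02 (ILMN_2663694, adjusted p = 0.957). All but the last were negative, and the span between the outermost of them was 0.52. The paper lists *Ndufs4*, but not *Ndufs6*, among the genes lower in these metformin livers. It also reports *Ndufs4* lower there by qPCR.

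Both calls depended on the model, and that of *Ndufs4* also on single livers. With the 12 HFD livers fitted alone 0 member probes passed, against 0.15% of all probes, with a smallest limma adjusted p of 0.0863 and a median over 45 probes of -0.20. Without the 4 metformin livers of code 3R, 0 passed, against 0.0931% of all probes, and the median was -0.14 (smallest limma adjusted p 0.231). Leaving out each liver in turn kept *Ndufs6* past the threshold in 12 of 12 fits and *Ndufs4* in 8 of 12, the latter being lost without control 1R-1 or 1R-4 or metformin 3R-1 or 3R-2. On the values as the authors had normalized them, 9 member probes passed, against 1.33% of all probes.

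**Figure D1:**
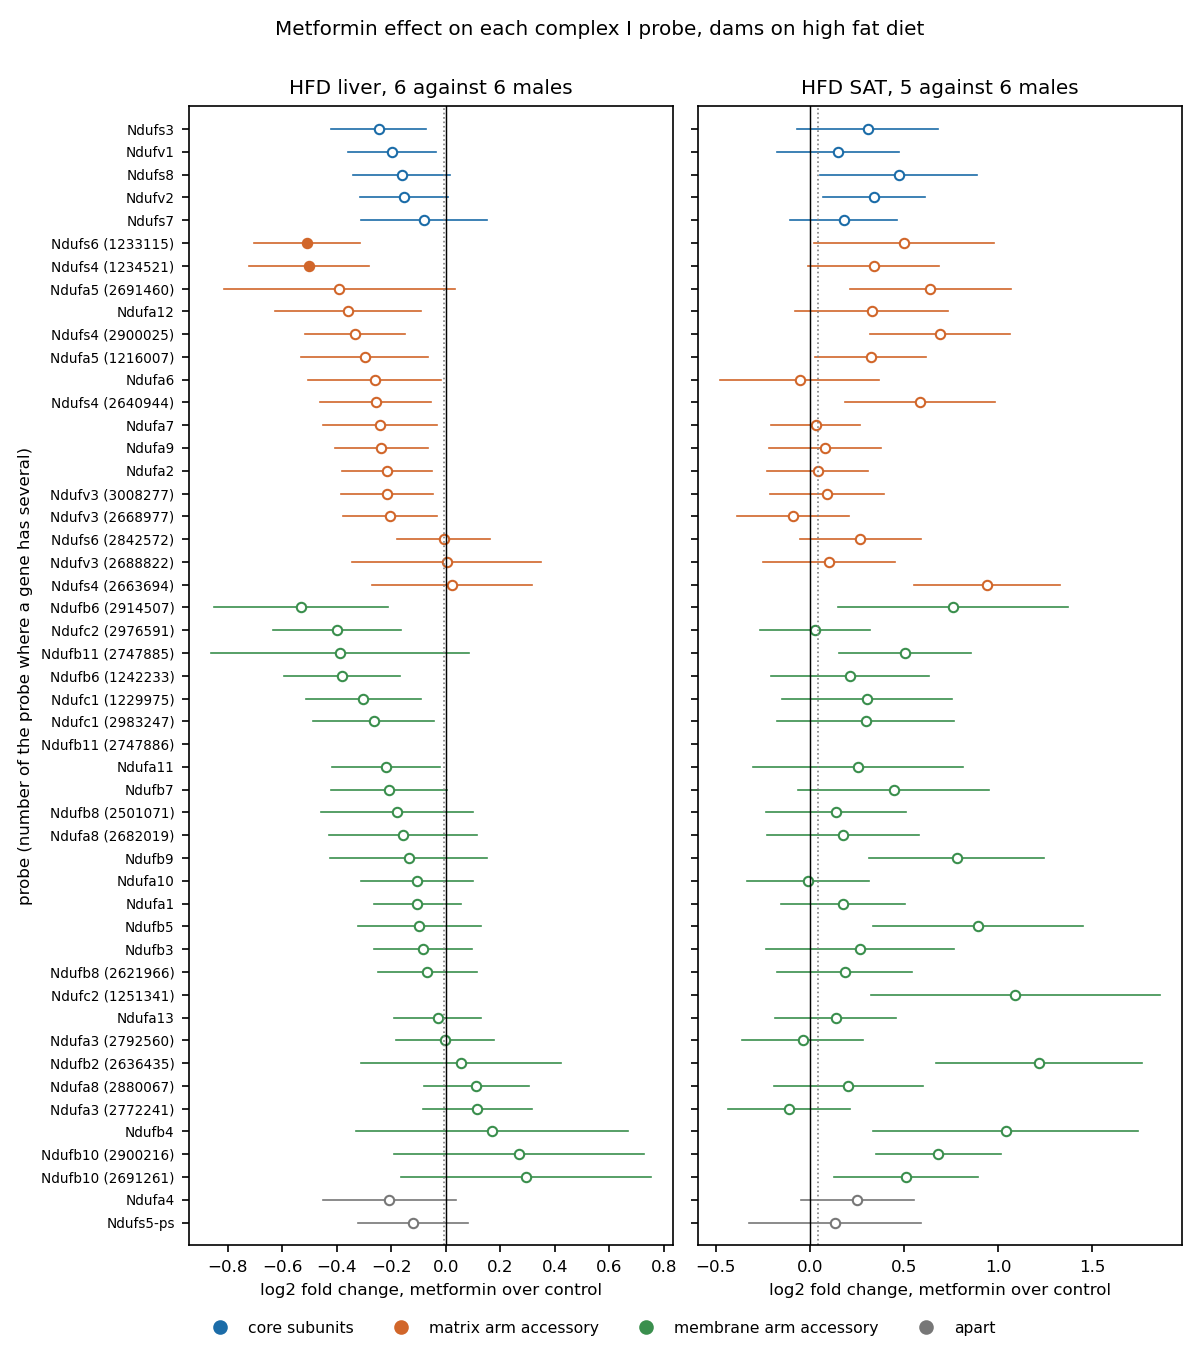
Log2 difference between metformin and control for each complex I probe in the HFD liver and in HFD SAT, on the horizontal axis, with bars for the 95% confidence interval and filled points where the limma adjusted p was under 0.05. The dotted line is the median of all tested probes. In liver 2 points are filled, *Ndufs6* and *Ndufs4*, and in SAT none is, while 43 of 48 probes lie above 0. The 2 probes not well above background in a liver group, of *Ndufc2* and *Ndufb11*, are left out of the liver panel.

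The matrix arm held 12 of the 20 probes that were lower at an unadjusted p under 0.05. Of its 16 probes 14 were negative with a median log2 difference of -0.25, among them *Ndufa12* at -0.36 (limma adjusted p = 0.147) and the brightest *Ndufa5* probe at -0.30 (adjusted p = 0.163). All 5 core probes were negative, with a median of -0.16 and 2 lower at that level, *Ndufv1* and *Ndufs3*, the latter at -0.25 (limma adjusted p = 0.13). In the membrane arm 20 of 26 were negative, with a median of -0.11 and 6 lower at that level, and the highest value was 0.29, of *Ndufb10*. Whether the arms differ was not tested.

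Metformin livers lay wholly below control livers for 5 member probes, against 0.621% of all probes. Besides those of *Ndufs6* and *Ndufs4* they were the *Ndufs4* probe ILMN_2900025, *Ndufa9* and *Ndufv1*. *Ndufa9*, a matrix arm subunit next to the ubiquinone site, ranged from 11.39 to 11.45 in controls and from 11.07 to 11.36 in metformin livers, with a log2 difference of -0.24 (limma adjusted p = 0.133). *Ndufv1*, the core subunit that binds NADH and FMN, ranged from 11.59 to 11.87 in controls and from 11.45 to 11.56 in metformin livers, with a log2 difference of -0.20 (limma adjusted p = 0.18). Neither passed the threshold.

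The next smallest p-values by brightest probe belonged to the membrane arm subunits *Ndufb6* and *Ndufc2*. *Ndufb6* (ILMN_1242233) had 11.57, 11.75 and 11.92 (lowest, median, highest) in control livers and 11.10, 11.32 and 11.66 in metformin livers, with a log2 difference of -0.38 (limma adjusted p = 0.0645) and its other probe had -0.53 (adjusted p = 0.0805). *Ndufc2* (ILMN_2976591) had 10.84, 11.05 and 11.41 in control livers and 10.48, 10.63 and 11.01 in metformin livers, with a log2 difference of -0.40 (limma adjusted p = 0.0727). The groups overlapped for both genes. The other *Ndufc2* probe (ILMN_1251341) was not well above background on any HFD liver. A *Ndufb11* probe (ILMN_2747886) was detected on 2 control and 0 metformin HFD livers, so no fold is given for either.

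The mean log2 intensity over the complex I probes summarised each array. It was 9.99, 10.03 and 10.19 (lowest, median, highest) in HFD control livers and 9.84, 9.88 and 9.95 in HFD metformin livers, so that the groups did not overlap. In RD livers the order was the opposite: control males ranged from 10.07 to 10.15 and metformin males from 10.16 to 10.20, and control females from 10.01 to 10.13 and metformin females from 10.14 to 10.22. These means carry no test of their own.

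**Figure D2:**
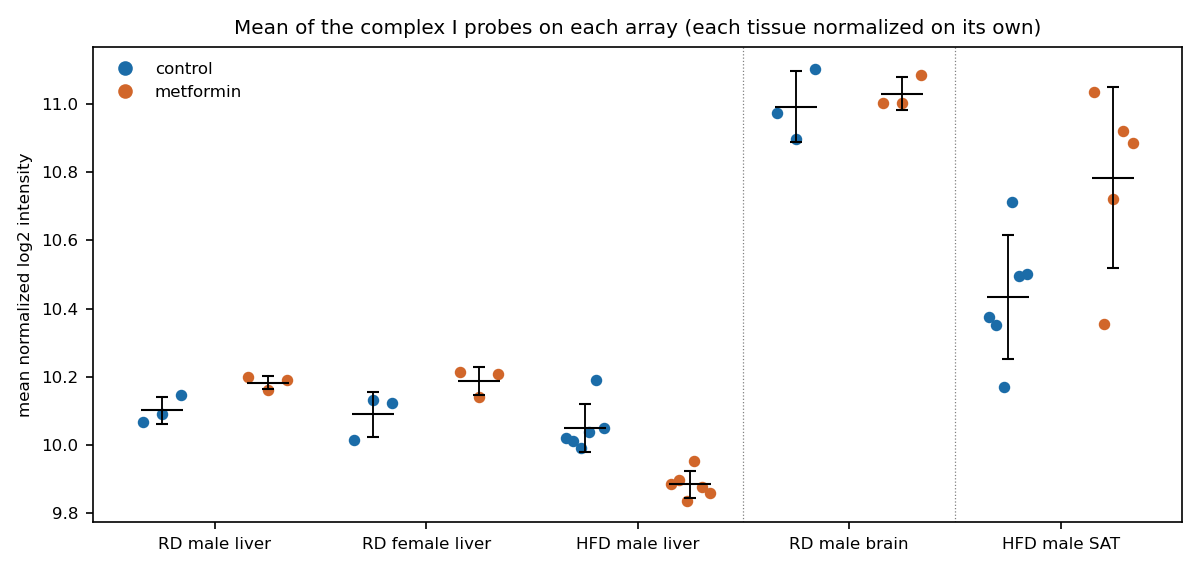
Mean log2 intensity over the complex I probes on the vertical axis, with 1 point for each array and 1 column for each of the 10 groups. Each tissue was normalized on its own and with its own tested probes, so levels are not to be set across tissues. HFD metformin livers (9.84 to 9.95) sit below HFD control livers (9.99 to 10.19), RD metformin livers sit above RD control livers of the same sex, and SAT arrays spread most widely.

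In the HFD liver, granulocyte and erythroid markers were mostly higher with metformin. Of 3 tested B cell markers 1 was higher, with a median log2 difference of -0.03 and 0 past the threshold. All 9 granulocyte markers were higher in metformin livers, with a median log2 difference of 0.33, and 2 passed the threshold, *Mpo* at 0.69 (limma adjusted p = 0.0112) and *Prtn3* at 0.57 (limma adjusted p = 0.036). Their mean level ranged from 10.80 to 11.23 in control and from 11.33 to 11.51 in metformin livers, without overlap. Of 7 erythroid markers 6 were higher, with a median of 0.35 and 0 past the threshold, and mean levels of 9.68 to 10.41 and 10.17 to 10.56. In RD livers the erythroid markers were 0 of 7 higher, with a median of -0.42, and 4 of 9 granulocyte markers were higher, with a median of -0.05. Every granulocyte and erythroid marker that had a probe was detected on all arrays of at least 1 liver group, and their part in the complex I result was not tested. The paper lists *Mpo*, *Prtn3* and *Ltf* among the genes higher in these metformin livers. The marker lists were chosen with earlier results of these data known, so these counts are no independent evidence.

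Metformin in SAT of HFD offspring. In SAT the same subunits were mostly higher in metformin exposed offspring, but no member probe passed the test here. The paper, with its own normalization and model, lists *Ndufs4*, *Ndufs6*, *Ndufs8*, *Ndufv2*, *Ndufb2*, *Ndufb4*, *Ndufb5*, *Ndufb6*, *Ndufb9*, *Ndufb10* and *Ndufc2* among the genes higher in this SAT. By qPCR it reports *Ndufs4* higher in metformin SAT. Of 48 tested probes 43 had a positive log2 difference, with a median of 0.27, against a median of 0.04 and 55.6% positive over all 15848 probes. No member probe passed in either direction after adjustment with limma (0 of 48), with a smallest adjusted p of 0.147, and a single probe of all those tested did (0.00631%). At an unadjusted p under 0.05, 17 member probes were higher and 0 lower, against 9.62% higher and 6.78% lower of all probes. The medians were 0.31 over the 5 core probes, 0.30 over the 16 of the matrix arm and 0.27 over the 25 of the membrane arm, with 5, 14 and 22 of them positive. *Ndufs4* gives 4 of the matrix arm probes, and with the brightest probe of each gene the medians were 0.31 over 5 core, 0.08 over 9 matrix arm and 0.26 over 18 membrane arm genes, with 2, 1 and 6 higher at an unadjusted p under 0.05. Of the core subunits *Ndufs8*, which carries iron-sulfur clusters, had 0.47 (limma adjusted p = 0.265) and *Ndufv2* had 0.34 (adjusted p = 0.233).

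Metformin SAT samples lay wholly above control samples for 2 member probes, against 1.67% of all probes. *Ndufb2*, a small membrane arm subunit, had log2 intensities of 5.42, 6.16 and 6.52 (lowest, median, highest) in the 6 control samples and of 7.09, 6.90, 6.81, 7.86 and 7.64 in the 5 metformin samples, with a log2 difference of 1.22 (SE 0.253, limma adjusted p = 0.147). The *Ndufs4* probe ILMN_2663694 had 8.58, 9.0 and 9.26 in controls and 10.01, 9.39, 9.81, 10.31 and 10.10 in metformin samples, with a log2 difference of 0.94 (SE 0.18, limma adjusted p = 0.147). Both were separated from the controls in each of the 5 metformin samples without passing the adjusted threshold.

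Among the brightest probes of each gene, *Ndufb9* and *Ndufb5*, both of the membrane arm, came next by p. *Ndufb9* had 7.23, 7.94 and 8.33 (lowest, median, highest) in controls and 8.65, 8.08, 8.51, 9.02 and 8.88 in metformin samples, with a log2 difference of 0.78 (SE 0.216, limma adjusted p = 0.168). *Ndufb5* had 8.30, 8.77 and 9.30 in controls and 10.15, 8.73, 9.63, 10.22 and 9.82 in metformin samples, with a log2 difference of 0.89 (SE 0.258, limma adjusted p = 0.176). The second metformin sample in each of these lists, from animal 3R-1, was the one that fell within the control range. *Ndufb4*, another membrane arm subunit, had a log2 difference of 1.04 (limma adjusted p = 0.188), with 6.56 in the same animal against a highest control of 6.83.

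Several genes with more than 1 probe gave unequal values in SAT. *Ndufc2* had 1.09 on ILMN_1251341 (limma adjusted p = 0.198) and 0.03 on ILMN_2976591 (adjusted p = 0.93), a gap of 1.06. The 4 *Ndufs4* probes had 0.94, 0.69, 0.59 and 0.34, with limma adjusted p-values of 0.147, 0.147, 0.189 and 0.315, a gap of 0.60. *Ndufb6* had 0.76 and 0.21, a gap of 0.55.

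**Figure D3:**
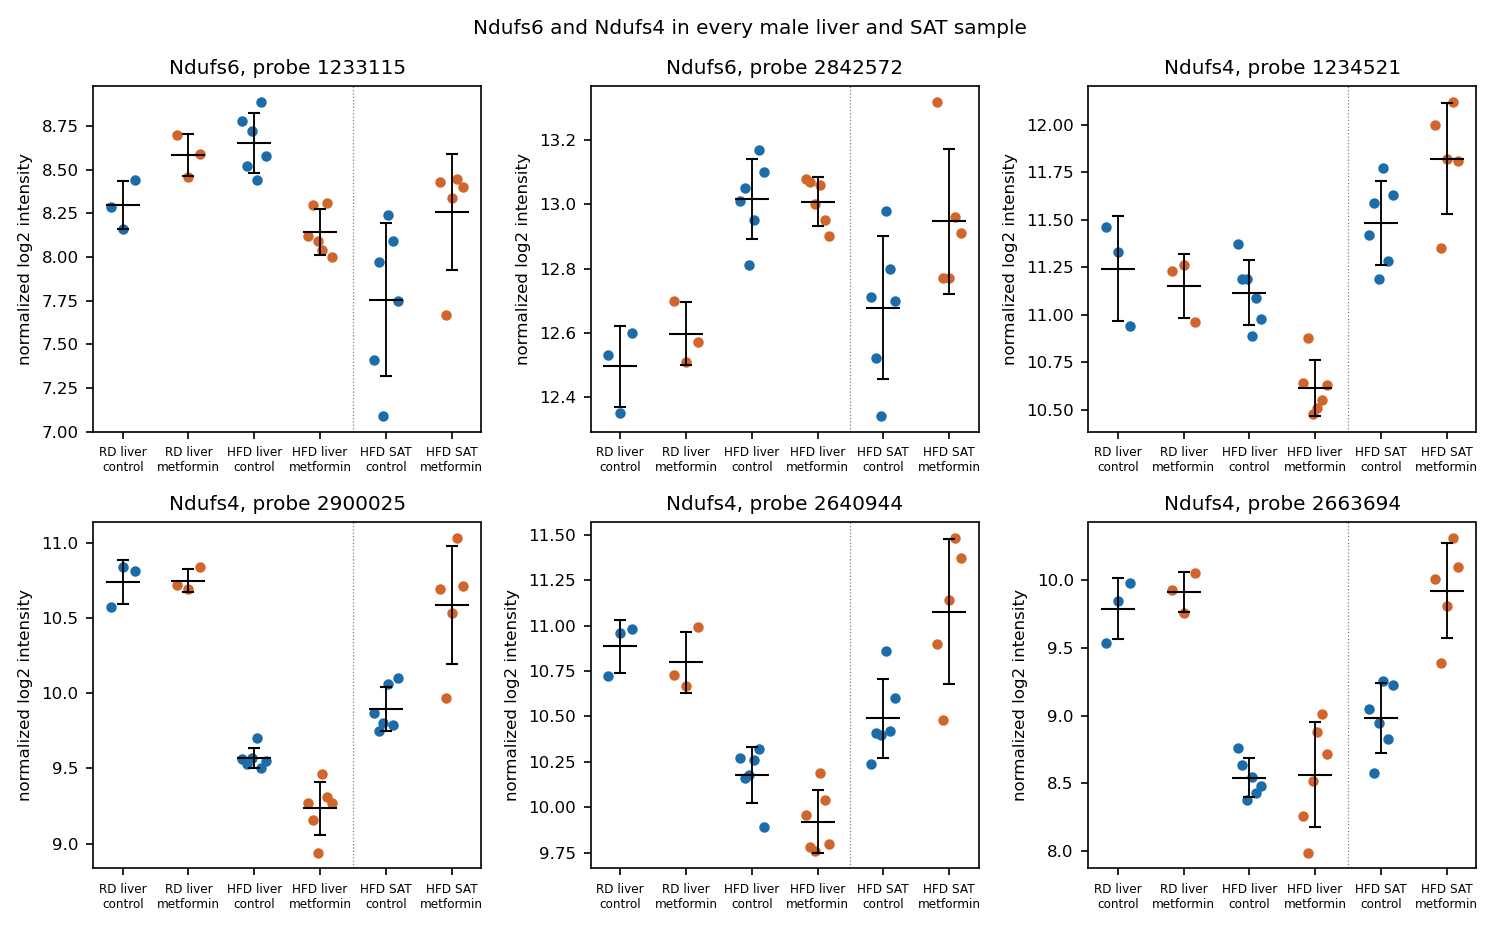
Log2 intensity of the 2 *Ndufs6* and 4 *Ndufs4* probes, 1 panel for each probe, in male RD livers, HFD livers and HFD SAT, with 1 point for each sample and a bar for the mean ± SD. SAT was normalized apart from liver, so levels are not to be set across those columns. In the HFD liver the metformin points lie below the control points for ILMN_1233115 and ILMN_1234521 and mix with them for ILMN_2842572 and ILMN_2663694.

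In SAT, markers of skeletal muscle and brown fat were mostly higher with metformin. Of 6 adipocyte markers 5 were lower, with a median log2 difference of -0.12, and the 1 tested B cell marker was at -1.22. In these 2 lists 0 passed the threshold. All 9 skeletal muscle markers were higher in metformin samples, with a median log2 difference of 2.01 and 0 past the threshold. Their mean level ranged from 5.78 to 11.95 in controls, where the samples 1R-4, 1T-1 and 1T-3 were low (5.78, 8.71 and 7.83), and from 10.86 to 12.23 in metformin samples. Of 5 tested brown fat markers 4 were higher, with a median of 0.91 and 0 past the threshold, among them *Ucp1* at 2.80 (limma adjusted p = 0.183), and their mean level ranged from 8.0 to 10.16 in controls and from 9.45 to 11.09 in metformin samples. Of the 6 brown fat markers 4 were detected on every control and 5 on every metformin sample, and the part of all these lists in the complex I values was not tested. The paper lists *Mylpf*, *Tnnt3*, *Ucp1* and *Cidea* among the genes higher in this metformin SAT. All these lists were chosen with earlier results known, so their counts are no independent evidence either. The mean over complex I probes ranged from 10.17 to 10.71 in controls and was 11.04, 10.35, 10.72, 10.92 and 10.89 in metformin samples. Without the dim controls 1R-4 and 1T-1 the median of the member probes was 0.16, against -0.0044 over all probes, and 0 passed.

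The count of calls in SAT turned on the model. With all 41 arrays normalized together and in 1 fit, 13 member probes passed, against 5.81% of all probes. With arrays weighted by their quality 10 did, against 6.51%. Of these calls, 9 were shared, 3 of *Ndufs4* and 1 each of *Ndufb2*, *Ndufb4*, *Ndufb5*, *Ndufb9*, *Ndufb10* and *Ndufc2*.

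Liver and SAT side by side. Both comparisons used the same control animals, and all but 1 of the metformin animals gave both tissues. Of the 48 probes tested in both, 36 were negative in liver and positive in SAT, 7 positive in both, 4 negative in both and 1 positive in liver and negative in SAT. The difference between the metformin effects, SAT minus liver, was tested in 1 fit of the 23 HFD arrays. It was positive for 46 of 48 probes, with a median of 0.42 against 0.05 over all 17125 probes. After adjustment with limma 0 member probes passed, as did 0% of all probes, and at an unadjusted p under 0.05 23 member probes were positive, against 8.94% of all probes.

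The smallest adjusted p-values belonged to genes already named. *Ndufs4* had a difference of effects of 1.01 on ILMN_2900025 (SE 0.194, limma adjusted p = 0.0826) and of 0.82 on ILMN_1234521 (limma adjusted p = 0.0941). *Ndufs6* had 1.00 on ILMN_1233115 (limma adjusted p = 0.1) and 0.26 on its other probe (adjusted p = 0.423). Without the SAT sample of animal 3R-1, 10 member probes passed, against 0.679% of all probes, and without that of control 1T-2, 3 did, against 0.268%. With the animal as a replicate block 0 passed, with a median of 0.42 and a smallest limma adjusted p of 0.0619.

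Other genes of complex I. Assembly factors help to build the complex without being part of it. Of 13 tested assembly genes 11 were lower in the HFD liver, with a median log2 difference of -0.21 and 0 past the threshold, and 13 of 13 were higher in SAT, with a median of 0.32, 6 at an unadjusted p under 0.05 (9.62% of all probes) and 0 past the threshold. *Ndufaf1* had 0.63 (limma adjusted p = 0.147) and *Ndufaf2* 0.72 (limma adjusted p = 0.214) in SAT. The mitochondrially encoded subunits, 5 tested in liver and 4 in SAT, had medians of 0.06 and 0.23, with 3 positive in each tissue and 0 past the threshold. In the list of mitochondrial regulators and mass markers 5 of 8 were lower in liver, with a median of -0.14, and 6 of 8 higher in SAT, with a median of 0.24, with 0 past the threshold in either. *Esrra*, an estrogen-related receptor, had -0.36 in liver (limma adjusted p = 0.271). *Ppargc1a*, a coactivator of mitochondrial genes, had -0.69 in liver, with a limma adjusted p of 0.319, and -0.02 in SAT.

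Metformin in RD offspring. In RD livers of both sexes together, 39 of 49 member probes were higher with metformin, with a median log2 difference of 0.08 against -0.01 over all probes, a direction that turned to -0.24 against -0.31 over all probes where arrays were only centred on their medians. After adjustment with limma 0 member probes passed, and 0.0912% of all probes did. At an unadjusted p under 0.05, 2 were higher, against 2.65% of all probes: *Ndufs6* (ILMN_1233115) at 0.25 (SE 0.0938, limma adjusted p = 0.429) and *Ndufv3* (ILMN_2688822) at 0.41 (adjusted p = 0.481). By brightest probe the smallest p-values belonged to *Ndufc1* at 0.21 (limma adjusted p = 0.615), *Ndufb5* at 0.21 (adjusted p = 0.635) and *Ndufa12* at 0.24 (adjusted p = 0.664). The median was 0.09 in males and 0.09 in females, and 0 member probes differed between the sexes (limma, 0% of all probes).

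In RD brains 29 of 47 member probes were higher, with a median of 0.04 against -0.0046 over all probes. This median was -0.0043 without metformin brain 6F and 0.0863 without control brain 5C. After adjustment with limma 0 passed, and 0.0156% of all probes did, with 1 member probe higher at an unadjusted p under 0.05, against 1.1% of all probes. That was *Ndufa12*, an accessory subunit of the matrix arm, with 11.49, 11.52 and 11.76 in the 3 control brains and 11.92, 12 and 12.07 in the 3 metformin brains. The groups did not overlap, and the log2 difference was 0.40 (SE 0.13, limma adjusted p = 1). Non-overlap with metformin above was seen for 2 member probes, the other being of *Ndufc1*, and for 2.59% of all probes. *Ndufb6* had 0.24 and *Ndufa5* 0.17 (limma adjusted p = 1 for both).

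HFD against RD. The metformin effect in the male liver was set against that of the other study, in which diet, study and array set go together and cannot be told apart. The difference, HFD minus RD, was negative for 43 of 49 member probes, with a median of -0.21 against -0.01 over all probes. A single member probe passed after adjustment with limma, against 0.0627% of all probes as lower, and 14 were lower at an unadjusted p under 0.05, against 6.48%. The probe that passed was *Ndufs6* ILMN_1233115, with a difference of effects of -0.79 (SE 0.162, limma adjusted p = 0.0356). In RD males it was 8.29, 8.16 and 8.44 in controls and 8.70, 8.46 and 8.59 in metformin livers, higher with metformin without overlap, as were 4.64% of all probes, where in HFD males it was lower without overlap. Leaving out each male liver in turn kept the call in 10 of 18 fits. It was lost without any of the RD controls 1B, 3B and 5C, RD metformin 1E, HFD control 1R-1 and HFD metformin 10K-1, 3R-1 and 3R-2. The probe that passed was not the brightest of *Ndufs6*. By the brightest probe of each gene 0 of 33 passed, and *Ndufa12* had the smallest limma adjusted p (0.143), at -0.74.

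The control livers of the 2 studies were compared after the other values had been seen. Of 49 member probes 14 were higher and 10 lower in HFD than in RD control males (limma), against 17.6% and 19.6% of all probes, with a median of 0.08 over the members. With arrays only centred on their medians this median was -0.64, against -0.58 over all probes. The differences were uneven: 8 probes had log2 differences beyond -1, namely *Ndufb4* (-1.63), *Ndufb2* (-1.59), *Ndufb5* (-1.43), *Ndufb9* (-1.37), *Ndufs4* on ILMN_2663694 (-1.25) and ILMN_2900025 (-1.17), *Ndufa5* on ILMN_2691460 (-1.16) and *Ndufc2* on ILMN_1251341. The last was not well above background on HFD control livers and was at least 1.5-fold lower there. The brightest probes of 3 of these genes did not pass, at -0.13 for *Ndufs4* (limma adjusted p = 0.47), 0.23 for *Ndufa5* (adjusted p = 0.201) and -0.21 for *Ndufc2* (adjusted p = 0.251). *Ndufb2*, for example, had 7.19, 7.68 and 7.46 in RD control livers and 5.19, 5.86 and 6.33 (lowest, median, highest) in HFD control livers, and 5.34, 5.93 and 6.32 in HFD metformin livers. These sizes depended on the processing. On the authors' values *Ndufb4* was at -0.53, *Ndufb2* at -0.60, *Ndufb5* at -0.87, *Ndufb9* at -0.86 and *Ndufa5* at -0.46. There all 8 probes still passed as lower (limma), but only the *Ndufs4* probes, at -1.015 and -1.09, stayed beyond -1. The 8 were dim, with a median array mean of 6.855 in HFD control livers, against 10.805 for the other 40. The 8 probes had some of the largest SAT differences: their log2 differences between metformin and control SAT ran from 0.64 to 1.22, with a median of 0.92, against 0.21 for the other 40 probes.

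Across the 48 probes the control liver difference and the SAT difference had Pearson's r = -0.772 and Spearman's rho = -0.549, and across 14180 probes of all genes r = -0.367 and rho = -0.38. These are descriptions across probes, which are not independent, and the HFD control animals enter both axes through their livers and their SAT. Of all probes 696 fell beyond -1 between the control livers, and their median SAT difference was 0.39, against 0.02 for the rest. The mean of the 8 probes was 7.96 to 8.38 in RD control male livers, 6.75 to 7.01 in HFD control livers, 6.96 to 7.75 in control SAT and 7.66 to 8.85 in metformin SAT, the lowest of the latter being animal 3R-1. Each range is on the scale of its own tissue.

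**Figure D4:**
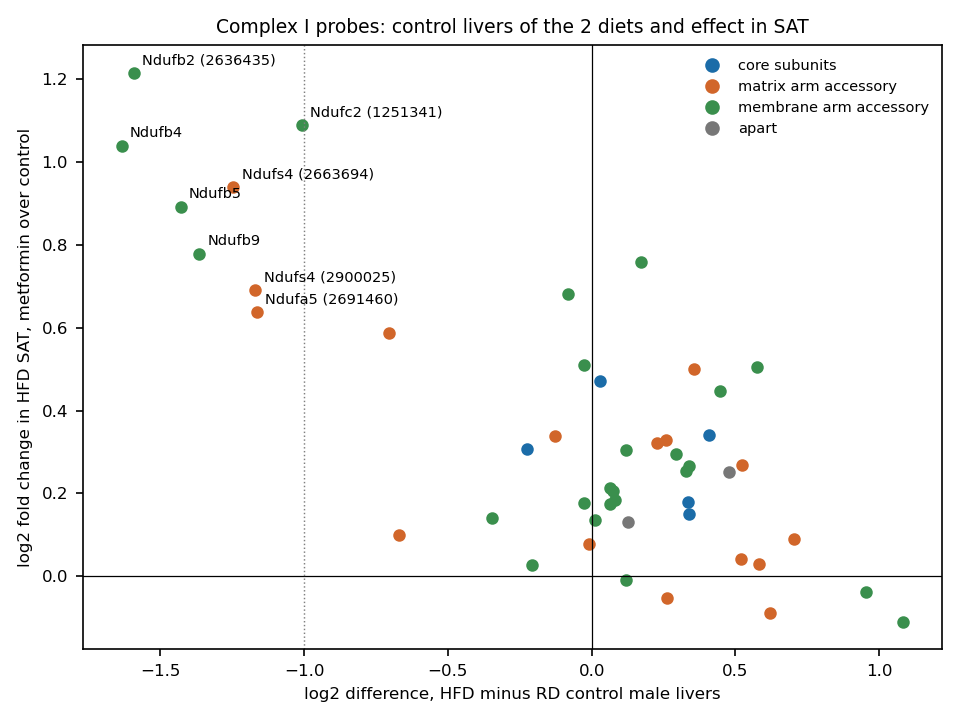
Each point is a complex I probe, with the log2 difference between HFD and RD control male livers on the horizontal axis and the log2 difference between metformin and control SAT on the vertical axis. The 8 named probes lie at the left, beyond -1, with SAT differences of 0.64 to 1.22, and the horizontal value of *Ndufc2* comes from a group below background.

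Levels across tissues. The same probe was compared between tissues of the same control animals after all 41 arrays had been normalized together, and different probes were not ranked by level. In RD male brains 43 of 49 member probes were lower than in liver, with a median log2 difference of -0.27 against 0.04 over all 21843 probes. With arrays only centred on their medians these medians were 0.04 and 0.46. By limma 19 member probes were lower and 3 higher after adjustment, against 36% and 38.5% of all probes.

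*Ndufb7*, a membrane arm subunit of the intermembrane space side, was 7.55, 7.27 and 7.67 in the 3 brains and 8.51, 8.33 and 8.54 in the 3 livers, a log2 difference of -0.97 (limma adjusted p = 1.42e-05). *Ndufa6*, a matrix arm subunit, was 10.88, 10.95 and 11.22 in brain and 11.95, 11.89 and 12.04 in liver, a log2 difference of -0.95 (limma adjusted p = 8.79e-06). *Ndufb9* followed at -0.91 (limma adjusted p = 0.00619) and *Ndufb10* (ILMN_2691261) at -0.82 (limma adjusted p = 0.0166), the latter past the threshold in 4 of 6 fits that left out an array. In these 4 genes every brain lay below every liver, as for 37.2% of all probes. Of 5 refits with every array kept, *Ndufb7* and *Ndufb9* each lost the call in 1 and *Ndufb10* in 2. *Ndufa6* kept it in all 5.

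In the other direction, *Ndufa4*, the subunit now counted with complex IV, was 13.16, 13.07 and 13.18 in brain and 12.33, 12.46 and 12.35 in liver, a log2 difference of 0.76 (limma adjusted p = 0.00015). *Ndufb8*, a membrane arm subunit, was higher in brain on its brightest probe, ILMN_2621966, at 0.63 (limma adjusted p = 0.000856). Its other probe, ILMN_2501071, was not well above background in control brains and was at least 3.63-fold lower there than in liver (limma adjusted p = 8.71e-09), so the probes of this gene pointed in opposite directions. The core subunit *Ndufv2* was at 0.33 (limma adjusted p = 0.0361), which passed in 1 of 6 fits that left out an array, and *Ndufs4* (ILMN_1234521) at 0.19 (adjusted p = 0.345). Of 5 refits with every array kept, the brightest *Ndufb8* probe lost the call in 1 and *Ndufv2* in 2, while *Ndufa4* kept it in all 5.

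In HFD control males 42 of 48 member probes were higher in SAT than in liver, with a median log2 difference of 0.54 against 0.13 over all probes. By limma 33 were higher and 2 lower after adjustment, against 35.9% and 25.3% of all probes. With arrays only centred on their medians the median was 0.27 against 0.16 over all probes, and 4 member probes passed, against 32% of all probes. *Ndufb5* had 8.61, 9.08 and 9.62 (lowest, median, highest) in SAT and 7.44, 7.71 and 7.82 in liver, a log2 difference of 1.46 (limma adjusted p = 1.04e-06). *Ndufb3* had 10.93, 11.97 and 12.11 in SAT and 10.26, 10.42 and 10.66 in liver, a log2 difference of 1.31 (limma adjusted p = 6.28e-07). *Ndufb8* followed at 1.00 (limma adjusted p = 2.18e-07) and *Ndufb4* at 0.91 (limma adjusted p = 0.0185). With the centred arrays *Ndufb3* (limma adjusted p = 0.0587) and *Ndufb8* (limma adjusted p = 0.228) did not pass, and *Ndufb4* did not without a filter on dim probes (limma adjusted p = 0.0527) or without the liver of control 1T-2 (limma adjusted p = 0.0566). For the first 3 of these genes, all of the membrane arm, every SAT sample lay above every liver, as for 19.9% of all probes, while *Ndufb4* overlapped.

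The probes that were lower in SAT were *Ndufs6* ILMN_1233115 and *Ndufa8* ILMN_2682019. *Ndufs6* had 7.39, 8.18 and 8.56 in SAT and 8.71, 8.92 and 9.15 in liver, a log2 difference of -0.85 (limma adjusted p = 0.000119), while its other probe had 0.04 (adjusted p = 0.783). *Ndufa8*, a membrane arm subunit of the intermembrane space side, had 9.62, 9.80 and 10.23 in SAT and 10.27, 10.34 and 10.67 in liver, a log2 difference of -0.54 (limma adjusted p = 0.0073), and -0.04 on its brightest probe (adjusted p = 0.816). By brightest probe *Ndufb11* at -0.32 (limma adjusted p = 0.223) and *Ndufb7* at -0.26 (adjusted p = 0.218) were negative without passing. The control SAT samples held skeletal muscle markers at mean levels of 5.78 to 11.95, whose part in these differences was not tested, and SAT RNA was extracted with another kit than liver RNA.

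**Figure D5:**
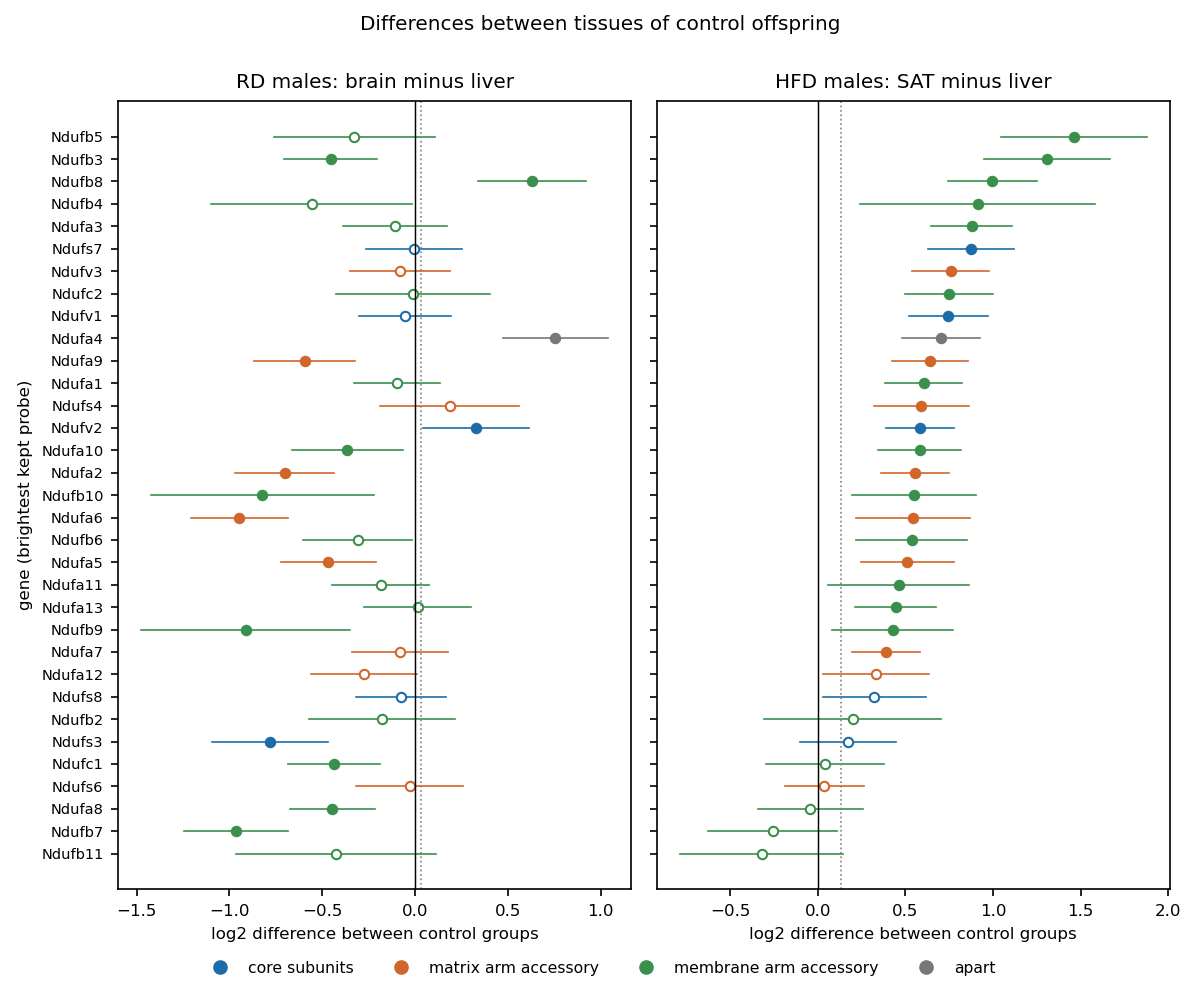
Log2 difference by gene, from the brightest probe of each, between control brain and liver of RD males and between control SAT and liver of HFD males, with bars for the 95% confidence interval. *Ndufb7* (-0.97) and *Ndufa4* (0.76) are at the ends in brain, and *Ndufb5* (1.46) and *Ndufb11* (-0.32) in SAT.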

How the data were processed

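RNA of 41 pup tissues was hybridised to Illumina arrays. The authors deposited a bead intensity per probe and array, not normalized, with a detection p-value for each. The authors also deposited log2 values made from these by variance stabilisation and robust splines in lumi (version not given in the sources used here), which served as an alternative. By its methods the study discarded 1 metformin SAT array, not analysed here.

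From the intensities, neqc of limma 3.58.1 (R 4.3.3, data.table version 1.17.8, offset 16, background from the detection p) gave log2 values, normalized within liver, SAT and brain for metformin effects and over all arrays for tissue contrasts. Probes entered a model if all arrays of some group had a detection p under 0.05. Models were fitted with lmFit, contrasts.fit and eBayes and tested on simulated data, with p-values adjusted by Benjamini-Hochberg over all kept probes. A probe detected on no array of a group has only a bound, from each array's lowest detected signal.

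Genes named were those past the threshold in a metformin comparison or a difference of effects, the 3 smallest p by brightest probe in each metformin comparison, the 4 largest tissue differences of each sign, genes whose probes differ by over 0.5, and genes not detected. The rule's ranking of probes by level was not used, since levels of different probes are not comparable. Others named, and the comparison of control livers, were chosen after their values were seen. Members and lists were chosen with earlier results of these data known. Liver was paired with SAT or brain by animal codes in the labels. Deviations of the 2 tissues of an animal correlated at 0.03 to 0.35 over 11 SAT pairs and -0.04 to 0.33 over 6 brain pairs. The array table gives no slide, so no slide block was fitted.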

Additional observations from a re-analysis of the deposited data

Results flagged for a closer look

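Of 84 groups of values examined, 4 held a sample set apart from the rest of its group (4.76%), and chance marks about 1 in 20 groups. In SAT the metformin sample of animal 3R-1 was low for *Ndufs6* (ILMN_1233115) at 7.67, against 8.34 to 8.45 in the other metformin samples, and for *Ndufa5* (ILMN_1216007) at 11.59, against 12.01 to 12.13. In liver the metformin animal 10K-1 was low for *Ndufa4* at 12.42, against 12.60 to 12.67. The control liver 1T-3 had the highest mean over complex I probes of the HFD controls at 10.19, against 9.99 to 10.05 in the others.

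The metformin effect on *Ndufs6* (ILMN_1233115) in the male liver differed between the studies by -0.79 (limma adjusted p = 0.0356), a fall in all 6 HFD metformin livers relative to every control and a value above every control in the 3 RD metformin livers. This probe is not the brightest of the gene, and by brightest probe 0 of 33 genes passed.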

How the results depend on the processing

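With arrays only centred on their medians, the median of all probes shifted to -0.19 in the HFD liver, 0.52 in HFD SAT, -0.31 in the RD liver, 0.46 for brain minus liver, 0.16 for SAT minus liver, 0.70 for the difference of effects between SAT and liver and -0.58 for the control livers of the studies. The member medians became -0.60 (-0.41 relative to all probes), 1.00 (0.49), -0.24 (0.06), 0.0432 (-0.42), 0.27 (0.11), 1.57 (0.87) and -0.64 (-0.06), and -0.50 for HFD minus RD. Directions thus turned in the RD liver, where *Ndufc1* became -0.0949, *Ndufb5* -0.16 and *Ndufa12* -0.11, in brain minus liver and in the control livers, but of these only the last turned relative to all probes. Member calls under this setting were 0 in the HFD liver, 0 for HFD minus RD, 4 for brain minus liver and 11 between control livers. For SAT minus liver there were 4, against 32% of all probes. In the main fits 36% of all probes were called lower and 38.5% higher for brain minus liver. Between control livers these shares were 19.6% and 17.6%.

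In the HFD liver 0.826% of all probes passed in the main fit. Member calls there were 9 on the authors' values (1.33% of all probes) and 5 with no background correction. They were 1 with all arrays in 1 fit, with array weights or without the livers 3R-6 and 1R-4. With HFD livers alone (0.15% of all probes) or without code 3R (0.0931%) they were 0. Calls in SAT were 13 with all arrays in 1 fit (5.81% of all probes) and 10 with array weights (6.51%). On the authors' values 0 passed for HFD minus RD and 3 for SAT minus liver effects, and the medians were -0.16 for brain minus liver, 0.45 for SAT minus liver and 0.12 between control livers. Without a filter on dim probes brain minus liver was -0.23.

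Leaving out each array in turn, the member medians ranged from -0.2065 to -0.1578 (1 to 5 calls) in the HFD liver, from 0.1842 to 0.3509 (0 calls) in HFD SAT, from 0.0728 to 0.0993 (0 calls) in the RD liver, from -0.0043 to 0.0863 (0 calls) in the RD brain, from -0.2672 to -0.1786 (0 to 1 calls) for HFD minus RD, from -0.3688 to -0.2391 (18 to 23 calls) for brain minus liver, from 0.4512 to 0.5573 (32 to 37 calls) for SAT minus liver, from 0.3686 to 0.5128 (0 to 10 calls) for the SAT minus liver effect and from 0.0711 to 0.1085 (18 to 26 calls) between control livers. *Ndufa8* (ILMN_2880067), SAT minus liver, turned to 0.0176 without control SAT 1T-1. The fits in the HFD liver with 5 calls left out metformin 10K-2, those with 4 control 1T-2, and those with 1 the 4 livers named for *Ndufs4*. With the animal as a replicate block the medians were -0.2746 (24 calls) for brain minus liver, 0.5395 (37 calls) for SAT minus liver and 0.4216 (0 calls) for the SAT minus liver effect, and no count of calls moved by over 1.5 times against the fit without the block. In the main fits 38.5% of all probes were called higher and 36% lower for brain minus liver. For SAT minus liver these shares were 35.9% and 25.3%, and between control livers 17.6% and 19.6%. The counts here show only how far member calls moved. Values of single probes and correlations across probes kept their direction and side of the threshold in 172 of the refits with every array kept or a preset group left out, no longer passed in 21, newly passed in 10 and turned in 3. With 1 array left out these numbers were 259, 20, 5 and 1. A slide block was not run, since no slide is given. Bead signal over background and group sizes of 3 to 6 limit the precision, and the causes of these shifts were not tested.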
